A study of Mus musculus with 6 samples.

Results

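Fibroblasts of the mouse embryonic line NIH/3T3 were compared after 72 h with TGF-β1 and the PLK1 inhibitor BI6727 and after 72 h with vehicle, across every gene with at least 10 counts in total over the 6 RNA-seq libraries of the study. That rule kept 17936 of the 54752 genes in the count table. The treated group received TGF-β1 at 1 ng/ml together with BI6727, also called volasertib, at 5 μM, and the vehicle group received PBS, with 2 libraries in each group. A further group of 2 libraries received TGF-β1 at 1 ng/ml with DMSO for 72 h. Its values are printed beside those of the comparison for some of the genes only, and its libraries did not enter the main test against vehicle. They counted in the filter of genes and in the scaling of the levels printed below. They also entered the test between BI6727 and DMSO and an alternative fit of all 6 libraries. The medium of all 3 groups was complete DMEM. The group with BI6727 differed from vehicle by TGF-β1, by BI6727 and by any solvent of BI6727, and the study had no group with BI6727 alone, so the parts that these had in a difference cannot be told apart. The cells were 1 established line, and the sample labels do not say whether the replicates were separate cultures, so the p-values measure the spread between these libraries, which may be technical. The RNA was measured in bulk, where fewer cells of a kind and less RNA per cell cannot be told apart.

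TGF-β1 is a secreted cytokine that binds a pair of receptor kinases on the cell surface, which phosphorylate SMAD2 and SMAD3. With SMAD4, these enter the nucleus and act on genes, and the kinases also feed into MAP kinase and other pathways. In fibroblasts, TGF-β1 is known for inducing the myofibroblast state, in which cells assemble contractile fibers of α-smooth muscle actin and secrete collagen-rich matrix. PLK1 is a mitotic kinase that is needed for the maturation of centrosomes, the assembly of the spindle and cytokinesis, and BI6727 blocks its ATP site.

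The libraries held between 18362378 and 24452153 counts on genes. Normalized CPM below are counts scaled to library size with TMM factors (CPM), and levels are compared between libraries, not between genes, since they are not divided by gene length. The replicates of each group differed by more than sampling noise, with a chi-square per degree of freedom of 5.90 in the vehicle pair and 5.09 in the BI6727 pair. It was 52.7 in the DMSO pair, which was the least alike. Over 9637 genes, the log2 ratio of the pair had an SD of 0.162 with vehicle, 0.150 with BI6727 and 0.378 with DMSO. The 10 fibroblast markers summed to 7689 and 7520 normalized CPM with vehicle and to 6301 and 6248 with BI6727. Of the leukocyte markers, Adgre1, Itgam and Cd3e had too few counts to be tested, and the 5 tested summed to 27.0 and 25.3 normalized CPM with vehicle and 23.8 and 21.4 with BI6727. The 5 endothelial markers tested summed to 5.99 and 9.30 with vehicle and 13.0 and 12.7 with BI6727, and the 4 epithelial markers to 0.352 and 0.492 with vehicle and 2.03 and 0.899 with BI6727.

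A large set of genes differed between the cells with TGF-β1 and BI6727 and the vehicle cells. A gene was called where its fold change passed 2 and its adjusted p was under 0.01, with p-values from the quasi-likelihood test of edgeR on these 4 libraries, adjusted by Benjamini-Hochberg over all 17936 genes. By that rule 479 genes were higher with TGF-β1 and BI6727, 2.67% of the genes tested, and 727 were lower, 4.05%. Together 6.72% were called, which is the background for the gene groups below. The fold change was above 4 in 191 of the higher and 259 of the lower genes, and above 8 in 99 and 121. In 478 of the higher and 721 of the lower genes the mean of the DMSO libraries lay on the same side of vehicle. The calls and these counts rest on the same vehicle libraries, and the share over all genes was not counted. Between BI6727 and DMSO, 0 of the higher and 1 of the lower genes had an adjusted p below 0.01 (edgeR), beside 2 of all genes. Protein-coding genes made up 86.0% of the higher and 92.8% of the lower genes, against 74.6% of all genes tested. The median log2 fold change over all genes was 0.012. At an adjusted p below 0.01 with any fold change, 25.3% of the genes passed, and the groups did not overlap in 65.7%. With a minimum of 10 CPM in over 3 samples, which tests fewer genes, 237 were higher and 300 lower, and with no fold minimum 2187 and 2356.

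**Figure D1:**
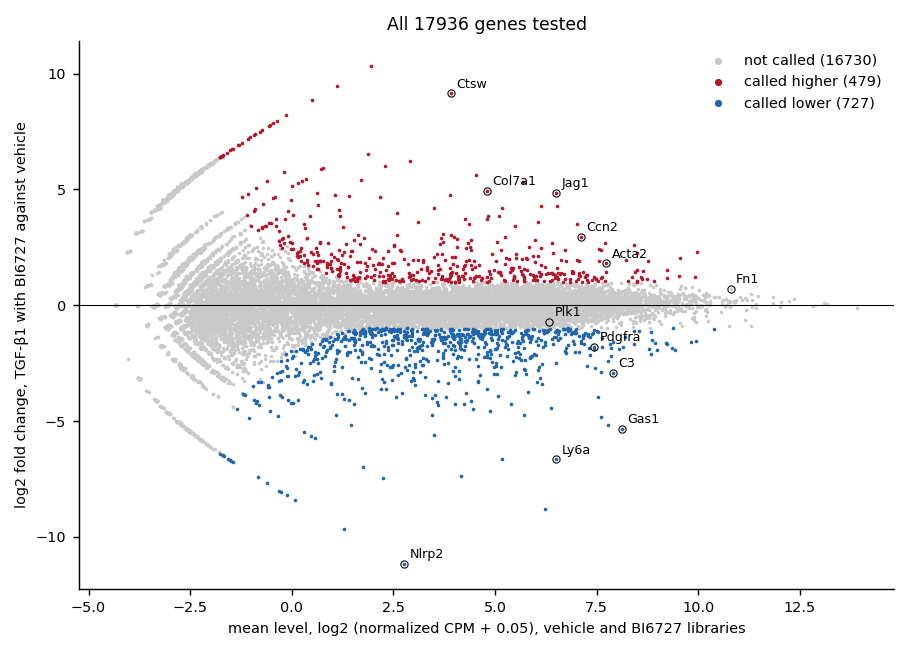
Each point is 1 of the 17936 genes tested, with its mean level over the vehicle and BI6727 libraries (horizontal axis, log2 of normalized CPM plus 0.05) and its fitted log2 fold change with TGF-β1 and BI6727 against vehicle (vertical axis). The 479 genes called higher are red and the 727 called lower are blue, and the curved edges on the left are genes with very few counts in 1 group, whose fitted fold change depends on the prior count.

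Among the genes reported here with at least 1 normalized CPM in the vehicle group, 12 with the largest rises are given here. Jag1, a membrane ligand of Notch receptors (chr2:137081456-137116644 in mm10), stood at 5.74 and 6.22 normalized CPM with vehicle and 173 and 176 with BI6727. The BI6727 libraries were close to each other and to DMSO replicate 1, with 172 and 119 in the DMSO libraries, and the log2 fold change came to 4.86 (standard error 0.10, adjusted p = 6.44e-18, edgeR). Col7a1, which forms the anchoring fibrils under epithelia, had 1.66 and 1.83 with vehicle, 49.7 and 47.9 with DMSO and 51.2 and 56.3 with BI6727. All 4 treated libraries lay far above the vehicle libraries, and its log2 fold change against vehicle was 4.94. Itga2, the collagen-binding integrin α2 subunit, rose by 4.75 on the log2 scale, and Inhba, the β subunit of activin A, by 4.27. Tnnt2, the troponin T of cardiac muscle, rose by 4.28, from 7.90 and 9.97 with vehicle to 177 and 173 with BI6727. The other 7 were Col5a3 (4.22), Skint7 (4.20), the metalloprotease Adam12 (3.86), the phagocytic receptor Megf10 (3.85), the semaphorin Sema7a (3.73), the Notch target Hes1 (3.72) and Ggct (3.61), an enzyme of glutathione breakdown.

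Among genes with at least 1 normalized CPM left with BI6727, 12 had the largest falls. Ly6a, the surface protein SCA-1 (chr15:74994877-74998031), stood at 202 and 156 normalized CPM with vehicle, 2.57 and 2.60 with DMSO and 1.43 and 2.04 with BI6727. The treated libraries lay together near the bottom of the range, and the log2 fold change came to -6.65 (standard error 0.16, adjusted p = 2.58e-17, edgeR). Of its 50-base windows, 19.0% also occur in other genes, so its value is uncertain. Gas1, a membrane protein named for its growth arrest-specific expression and a coreceptor of Hedgehog (chr13:60174405-60177365), fell from 614 and 471 to 13.4 and 13.6, with a log2 fold change of -5.33. Other genes overlap 19.9% of its exonic length. Cxcl5, a neutrophil chemokine, stood at 502 and 356 with vehicle, 29.4 and 29.9 with DMSO and 11.9 and 11.7 with BI6727, and fell by 5.18 on the log2 scale. Ptn, the heparin-binding growth factor pleiotrophin, had 391 and 364 with vehicle, 29.7 and 33.7 with DMSO and 15.6 and 11.6 with BI6727, and fell by 4.81. For both, the BI6727 libraries lay below the DMSO libraries, with log2 differences of -1.33 (adjusted p = 0.0526, edgeR) and -1.22 (adjusted p = 0.0526, edgeR) in a fit of all 6 libraries, which did not pass the threshold. The other 8 were Ptgfr (-4.75), Igsf10 (-4.56), the water channel Aqp1 (-4.50), the pentraxin Ptx3 (-4.46), the Wnt antagonist Sfrp2 (-4.29), the cysteine dioxygenase Cdo1 (-4.28), Asb4 (-4.28) and the matricellular Sparcl1 (-4.27). Other genes overlap 19.8% of Igsf10 and 16.1% of Sfrp2.

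**Figure D2:**
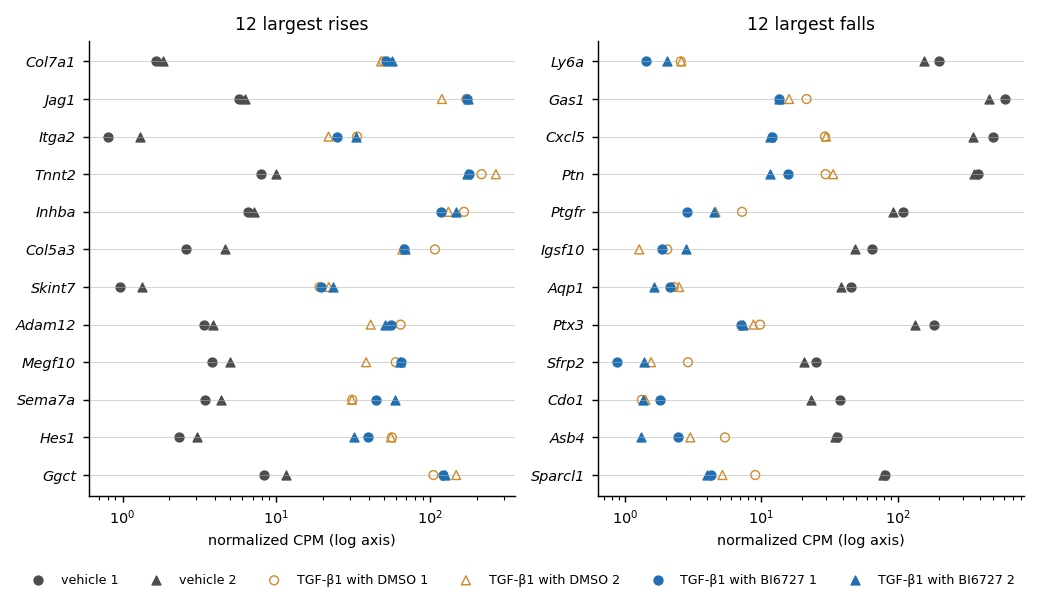
Normalized CPM (log axis) of the 12 genes with the largest rise among those reported here (left) and the 12 with the largest fall (right) with TGF-β1 and BI6727 against vehicle, 1 symbol per library. The genes were chosen among those where the 2 vehicle libraries (grey) lie apart from the 2 BI6727 libraries (blue), so that separation is not a result.

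Some genes went from almost no reads to clear expression, or the reverse. In 53 of the higher genes every vehicle library, and in 38 of the lower genes every BI6727 library, had at most 3 counts, so only a bound on the fold can be given, set against 3 counts per library. Ctsw, the cathepsin W protease known from cytotoxic lymphocytes, had at most 2 counts with vehicle and 28.0 and 32.4 normalized CPM with BI6727, so it was at least 212-fold higher. Hmgcll1, a lyase of ketone body metabolism, was at least 53.3-fold higher, and Aldh1l1, a dehydrogenase of folate metabolism, at least 49.9-fold. Sp7, the osteoblast transcription factor osterix, had 3.41 and 3.15 normalized CPM with BI6727 and was at least 23.0-fold higher. In the other direction, Nlrp2, a member of the NLR family, had 15.2 and 11.7 normalized CPM with vehicle and 0 counts in both BI6727 libraries, so it was at least 93.5-fold lower. Agt, the precursor of angiotensin, was at least 65.0-fold lower, Ranbp3l at least 33.3-fold and the iron-carrier protein Lcn2 at least 19.6-fold. The olfactory receptor model Olfr805 was at least 29.4-fold higher, and the gene model Gm43618 at least 46.2-fold lower. Gm43618 overlaps Ptgfr on the opposite strand, and since no use of strand is stated for the counting, their reads cannot be told apart.

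Genes known to be induced by TGF-β were higher in the cells with TGF-β1 and BI6727, including the marker of myofibroblasts. Acta2, which encodes α-smooth muscle actin (chr19:34241090-34255336), stood at 89.3 and 98.5 normalized CPM with vehicle, 469.7 and 464 with DMSO and 344 and 322 with BI6727. The BI6727 libraries lay above both vehicle libraries and below both DMSO libraries. Its mean rose from 93.9 ± 6.48 to 333 ± 15.5 (SD, n = 2), a log2 fold change of 1.82 (standard error 0.071, adjusted p = 3.93e-14, edgeR). Between BI6727 and DMSO its log2 difference was -0.49 (adjusted p = 0.469, edgeR), which did not pass. Ccn2, a matricellular protein also called CTGF (chr10:24595442-24598683), stood at 30.0 and 32.6 with vehicle, 380.1 and 411 with DMSO and 252 and 236 with BI6727. It had the same order of groups as Acta2, with a log2 fold change of 2.96 against vehicle and -0.70 against DMSO (adjusted p = 0.125, edgeR), and other genes overlap 23.2% of its exonic length.

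Of 17 TGF-β response genes tested, 8 were called higher and 1 lower, with a median log2 fold change of 0.76 beside 0.012 over all genes. Besides Ccn2, the higher ones included the SMAD corepressor Skil, the membrane adaptor Pmepa1, the cytokine Il11, the inhibitory Smad7, and Tgif1 and Bhlhe40, which encode transcriptional repressors. The call of Bhlhe40 was lost without vehicle replicate 1 (1.00) and without BI6727 replicate 2 (0.97). Skil stood at 22.1 and 20.8 normalized CPM with vehicle and 115 and 122 with BI6727, and Pmepa1 at 51.9 and 60.6 with vehicle and 357 and 367 with BI6727. Their log2 fold changes were 2.47 and 2.69. Smad7 rose by 1.35 on the log2 scale (adjusted p = 2.42e-11, edgeR), and Il11 by 2.81. The gene called lower was Tgfbi, a secreted adhesion protein, which stood at 11.2 and 11.7 with vehicle, 7.05 and 3.73 with DMSO and 2.42 and 2.29 with BI6727, a log2 fold change of -2.28.

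Among 21 contractile and actin genes tested, 6 were called higher and 1 lower, with a median log2 fold change of 0.51. Myl9, a regulatory light chain of myosin, stood at 2.11 and 2.01 normalized CPM with vehicle and 11.5 and 9.72 with BI6727, a log2 fold change of 2.36. Myh9, the heavy chain of nonmuscle myosin, rose by 1.18, and Pdlim7, an adaptor of actin filaments, by 1.24. Smtn, which encodes smoothelin, and Actg2, the γ actin of smooth muscle, were the others called higher. The call of Smtn was lost without vehicle replicate 1 (0.96) and without BI6727 replicate 2 (0.91). Actg2 had 1.98 and 1.18 normalized CPM with BI6727, and its call was lost without vehicle replicate 2, without BI6727 replicate 1, in the fit of all 6 libraries and with DESeq2. Mylk, the kinase of the myosin light chain, went the other way, from 5.89 and 6.22 to 1.10 and 1.39, a log2 fold change of -2.26 (adjusted p = 1.28e-06, edgeR). Tagln, another myofibroblast marker, had only 0.453 and 0.268 with vehicle and 1.15 and 1.35 with BI6727, and shares 58.3% of its windows with other genes, so its value is uncertain.

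**Figure D3:**
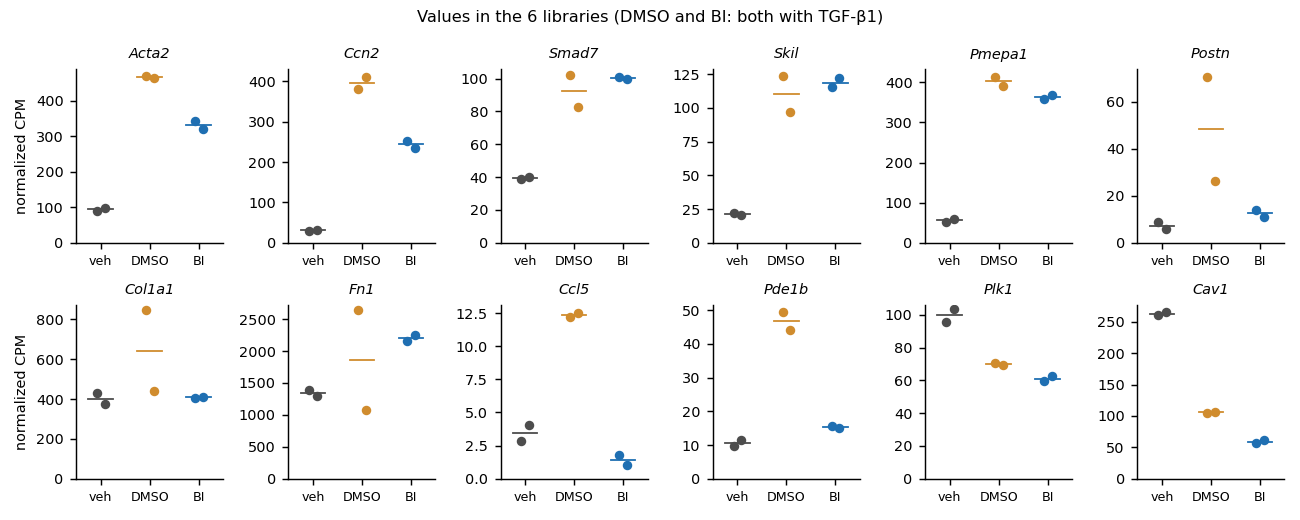
Normalized CPM of 12 genes in the 6 libraries (points) with the mean of each group (lines), each axis starting at 0, for vehicle (veh), TGF-β1 with DMSO (DMSO) and TGF-β1 with BI6727 (BI). Acta2 and Ccn2 lie between the other groups with BI6727, Smad7, Skil and Pmepa1 lie near the DMSO libraries, and the DMSO replicates are far apart for Postn, Col1a1 and Fn1.

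The matrix genes moved in both directions, and the levels of Col1a1 overlapped between the groups. Col1a1, the α1 chain of type I collagen (chr11:94936224-94953042), stood at 428 and 374 normalized CPM with vehicle and 406 and 411 with BI6727, and at 847 and 438 with DMSO. The BI6727 libraries lay between the vehicle libraries, and the log2 fold change came to 0.03 (standard error 0.068, adjusted p = 0.82, edgeR). Its partner chain Col1a2 stood at 1899 and 1694 with vehicle and 907 and 848 with BI6727, a log2 fold change of -1.03. That value lies at the fold threshold, and the call was lost without vehicle replicate 1 (-0.95), without BI6727 replicate 2 (-0.997) and with offsets for gene length (-0.93). Of 18 collagen genes tested, 2 were called higher and 4 lower, or 2 lower without BI6727 replicate 2. The higher ones were the minor fibrillar or anchoring collagens Col7a1 and Col5a3. Col6a1 and Col6a2, chains of the beaded-filament collagen VI, had the clearest falls. Col6a1 went from 748 and 639 to 191 and 184, a log2 fold change of -1.89 (standard error 0.073), and Col6a2 fell by 1.88. Fn1, which encodes fibronectin, stood at 1397 and 1301 with vehicle and 2153 and 2247 with BI6727, a log2 fold change of 0.71 (adjusted p = 3.43e-09, edgeR) that is under a fold of 2. Postn, the matricellular protein periostin, had 8.76 and 5.81 with vehicle, 70.6 and 26.2 with DMSO and 13.8 and 11.1 with BI6727. Its log2 fold change was 0.78 (adjusted p = 0.00316, edgeR), also under a fold of 2, and 1.09 without vehicle replicate 1.

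Enzymes that process collagen were called in 7 of 15 genes, 2 higher and 5 lower. Plod2, a lysyl hydroxylase of collagen telopeptides, and Bmp1, a procollagen C-proteinase, were higher, with log2 fold changes of 1.51 and 1.29. Adamts2, the procollagen N-proteinase, stood at 56.1 and 55.3 normalized CPM with vehicle and 9.89 and 8.37 with BI6727, a log2 fold change of -2.62. Pcolce, an enhancer of the C-proteinase, fell by 1.67 on the log2 scale, the lysyl oxidase Loxl1 by 1.63 and the prolyl hydroxylase P4ha3 by 1.62. Lox, which encodes lysyl oxidase itself, lay just past a fold of 2, and its call was lost without vehicle replicate 1 (-0.84), without BI6727 replicate 1 (-0.99), with the replicate block (-0.993), with DESeq2 or its size factors, with filterByExpr and with offsets for gene length.

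Among 25 matrix glycoproteins, 3 were called higher and 8 lower, with a median of -0.043. The higher ones were Ccn2, Thbs1, which encodes thrombospondin 1 and rose by 1.45 on the log2 scale, and Fbln2, which encodes fibulin 2 and rose by 1.20. Efemp1, a fibulin of elastic tissues, stood at 371 and 322 normalized CPM with vehicle, 23.0 and 22.8 with DMSO and 20.5 and 23.8 with BI6727. The 4 treated libraries lay close together, and the log2 fold change against vehicle was -3.96 (standard error 0.091, adjusted p = 2.34e-17, edgeR). Ccn5 and Ccn3, relatives of Ccn2, went the other way, with log2 fold changes of -3.38 and -2.45, and Fbln5, an organizer of elastic fibers, fell by 2.42.

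Proteoglycans were called in 8 of 16 genes tested, each time lower with TGF-β1 and BI6727, and the median log2 fold change was -0.91. The list median lay at -0.46 and -1.52 from vehicle in the DMSO libraries and at -0.99 and -0.84 in the BI6727 libraries. Between BI6727 and DMSO it was -0.16, and 0 of the 16 had an adjusted p below 0.01 (edgeR). Dcn, which encodes decorin, a small leucine-rich proteoglycan that binds collagen fibrils, stood at 1210.3 and 959 normalized CPM with vehicle and 305 and 272 with BI6727. The groups were far apart, at a log2 fold change of -1.91 (adjusted p = 3.49e-13, edgeR). Prelp, Omd, Ogn and Aspn, of the same family, were low with vehicle, between 0.806 and 2.52 normalized CPM, and had at most 3 counts in each BI6727 library. They were at least 16.2-fold, 7.01-fold, 12.8-fold and 11.8-fold lower. The call of Omd was lost without vehicle replicate 2 and in the fit of all 6 libraries, and that of Aspn without vehicle replicate 1.

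Proteases that act on matrix and their inhibitors were called higher in 8 of 19 genes and lower in 2, with a median log2 fold change of 1.21. With the filter of at least 10 CPM, which tests 12 of them, the median was -0.16 and 4 were called higher. Mmp10, the protease stromelysin 2 (chr9:7502352-7510240), had at most 2 counts with vehicle and 2.58 and 3.72 normalized CPM with BI6727, so it was at least 22.1-fold higher. Mmp13, a collagenase (chr9:7272514-7283331), stood at 0.101 and 0.358 normalized CPM with vehicle and 4.34 and 3.96 with BI6727, a log2 fold change of 4.10 (standard error 0.46, adjusted p = 3.99e-07, edgeR). Serpinb2, a serine protease inhibitor, rose by 3.97. Plaur, the receptor of urokinase, stood at 77.1 and 80.2 with vehicle and 297 and 295 with BI6727, and Timp1, an inhibitor of metalloproteases, at 183 and 194 with vehicle and 504 and 508 with BI6727. Their log2 fold changes were 1.91 and 1.42. The metalloprotease Mmp19 fell by 2.12, with 28.3% of its exonic length overlapped by other genes, and Serpine2, protease nexin 1, by 1.13.

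Mmp10, Mmp13 and Il11 shared a sequence that the count data did not use, the AP-1 element, which FOS and JUN dimers bind. Their promoters are shown because the element lay within 100 bases of a start in each, but Il11 has another RefSeq start whose window held none. The element was not particular to them, since it also lay within 100 bases of the start in Plaur, in Mylk and Col6a1, which were called lower, and in other genes. The sequences are the 250 bases before a RefSeq transcript start in the build GRCm38.p6, 5′ to 3′ on the gene's strand. Capitals mark AP-1 elements (TGAGTCA or TGACTCA) and SMAD elements (CAGACA or TGTCTG, with GTCTAGAC also searched).
Mmp10, chr9:7502092-7502341 (+ strand): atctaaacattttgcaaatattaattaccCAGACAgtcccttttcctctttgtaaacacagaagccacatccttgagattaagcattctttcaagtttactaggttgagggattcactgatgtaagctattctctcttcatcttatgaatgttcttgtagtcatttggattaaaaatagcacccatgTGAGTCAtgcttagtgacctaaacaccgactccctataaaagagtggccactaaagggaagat
Mmp13, chr9:7272264-7272513 (+ strand): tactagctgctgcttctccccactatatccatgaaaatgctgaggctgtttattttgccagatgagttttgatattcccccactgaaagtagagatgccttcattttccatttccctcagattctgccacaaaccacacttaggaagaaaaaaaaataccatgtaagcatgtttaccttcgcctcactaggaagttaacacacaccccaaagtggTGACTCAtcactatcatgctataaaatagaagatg
Il11, chr7:4778142-4778391 (- strand): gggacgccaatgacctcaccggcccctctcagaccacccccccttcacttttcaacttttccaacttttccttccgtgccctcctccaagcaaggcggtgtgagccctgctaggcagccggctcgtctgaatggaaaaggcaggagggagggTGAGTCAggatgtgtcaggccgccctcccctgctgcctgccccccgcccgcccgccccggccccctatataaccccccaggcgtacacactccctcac
The AP-1 element lay 63 bases before the start in Mmp10, 35 in Mmp13 and 98 in Il11, and Mmp10 also held a SMAD element at 221. Of the genes called higher, 321 had such a window, and 45 of them (14.0%) held an AP-1 element on either strand. The share was 5.33% of the 507 called lower genes with a window, 4.45% of the 11339 tested genes with one and 4.46% of all 32851 promoter windows of that length. SMAD elements were found in 26.5% of the higher, 21.3% of the lower and 16.7% of the tested genes. A match to these letters is a description of the window, not of binding. Among the AP-1 subunits themselves, Fos was called lower, from 28.1 and 11.3 to 3.41 and 4.21 normalized CPM, and Jun stood at 209.7 and 201 with vehicle and 202 and 197 with BI6727. Fosl1 had a log2 fold change of 0.12 (adjusted p = 0.255, edgeR) and Junb of 0.53.

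Within the TGF-β pathway, 14 genes of ligands, receptors and SMADs were tested, of which 1 was called higher and 4 lower, with a median of -0.47. Tgfb1 itself stood at 55.7 and 71.8 normalized CPM with vehicle and 113 and 128 with BI6727, a log2 fold change of 0.92 (adjusted p = 2.01e-07, edgeR). This was under a fold of 2, and was 1.12 without vehicle replicate 2 and 1.00 without BI6727 replicate 1, where it passed. Tgfb2 fell by 1.76 on the log2 scale, a call lost in the fit of all 6 libraries. Of the receptors, the coreceptor Tgfbr3, or betaglycan, went from 133 and 109.7 to 20.4 and 21.7, a log2 fold change of -2.53, and the type I receptor Acvrl1, or ALK1, rose from 1.01 and 0.760 to 5.66 and 5.27. Of the SMADs, Smad3, the main nuclear effector of the pathway, stood at 68.0 and 71.2 with vehicle, 32.0 and 25.4 with DMSO and 30.2 and 30.1 with BI6727. The treated libraries lay well under the vehicle libraries, with a log2 fold change of -1.21 (standard error 0.088, adjusted p = 7.94e-10, edgeR). Smad9, an effector of BMP signals, fell by 1.82.

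The related activin and BMP genes showed high Inhba and low ID genes with BI6727. Of 15 genes tested, 2 were called higher and 5 lower, with a median of -1.01. Inhba stood at 6.49 and 7.16 normalized CPM with vehicle, 166 and 131 with DMSO and 118 and 147 with BI6727. Fstl3, a secreted antagonist of activin, rose by 1.34, although other genes overlap 47.3% of its exonic length. Fst, which encodes the antagonist follistatin, was called lower (-1.23), a call lost without vehicle replicate 2, in the fit of all 6 libraries and with DESeq2. The ID proteins, which bind bHLH transcription factors and keep them from DNA, are encoded by known targets of BMP. Id2 went from 97.9 and 94.8 to 23.7 and 16.4, a log2 fold change of -2.28, and Id3 from 231 and 202 to 105 and 81.7, a log2 fold change of -1.22. Id1 had a log2 fold change of -0.93 (adjusted p = 1.23e-08, edgeR), under a fold of 2, and of -1.08 without BI6727 replicate 1, where it passed. Bmper, an extracellular modulator of BMP, fell by 1.89.

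**Figure D4:**
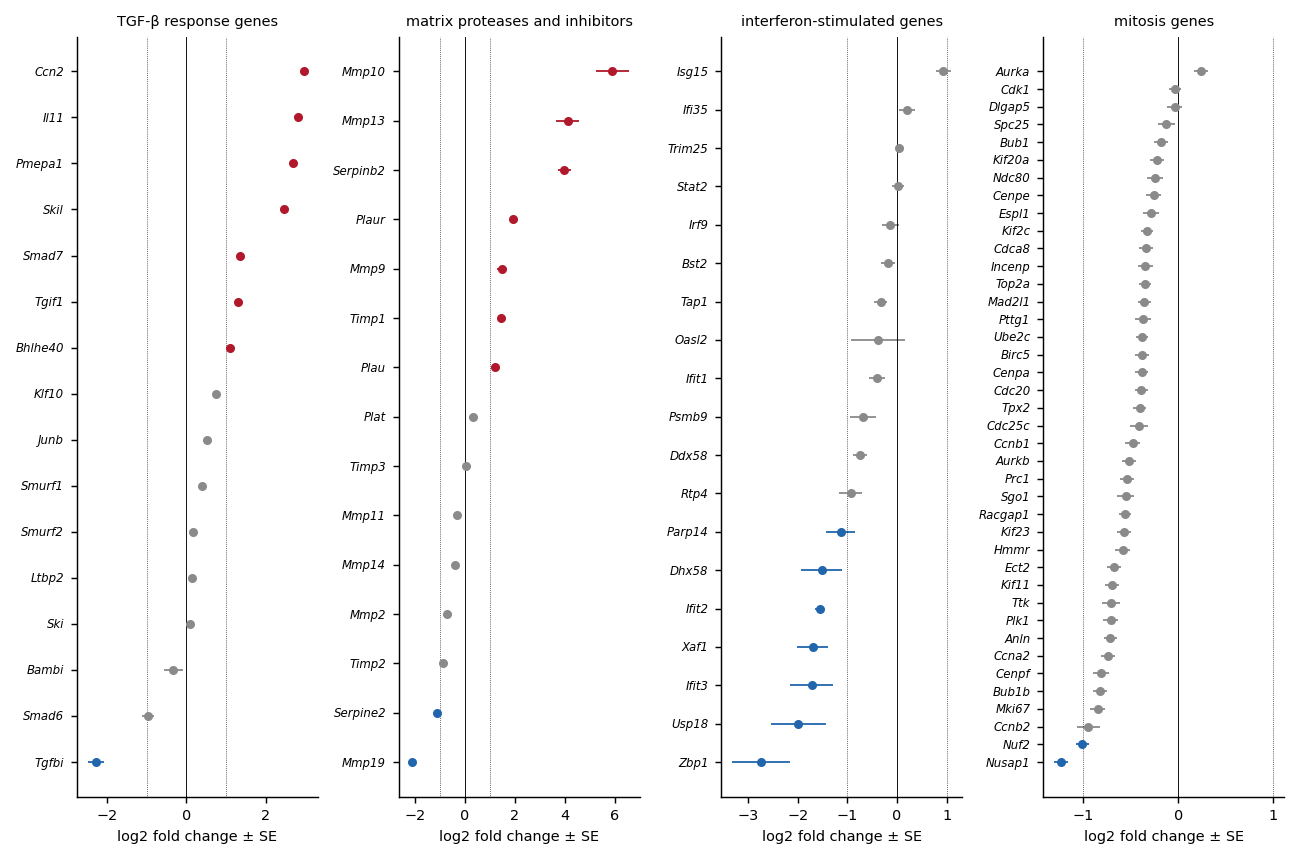
Log2 fold change ± standard error, TGF-β1 with BI6727 against vehicle, of the members reported here of 4 gene lists, with a mean of at least 1 normalized CPM in either group. Red points were called higher, blue points lower and grey points not called, and the dotted lines mark a fold of 2. The 39 of 40 mitosis genes left of 0 lie mostly within a fold of 2, while matrix proteases reach log2 fold changes above 4.

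Transcripts of the drug's target and of other mitotic genes were somewhat lower with TGF-β1 and BI6727, mostly by less than a fold of 2. Plk1 (chr7:122159439-122169873) stood at 95.7 and 104 normalized CPM with vehicle, 70.6 and 69.2 with DMSO and 59.5 and 62.5 with BI6727. Both BI6727 libraries were lowest, with a log2 fold change of -0.71 (standard error 0.078, adjusted p = 3.83e-07, edgeR) against vehicle and -0.20 (adjusted p = 0.792, edgeR) against DMSO. BI6727 acts on the kinase and not on its transcript, so the level does not check the labels. Of 40 mitosis genes, 39 had a log2 fold change below 0, and 38 had both BI6727 libraries under both vehicle libraries, beside 32.4% of all genes. At an adjusted p below 0.01 in either direction 32 passed, beside 25.3% of all genes (edgeR). All 40 also passed the filter of at least 10 CPM in over 3 samples. The shares over all genes include many genes with few counts, so they are not matched for level. The median log2 fold change was -0.41. The list median lay at -0.36 and -0.43 from vehicle in the DMSO libraries and at -0.40 and -0.45 in the BI6727 libraries. Between BI6727 and DMSO the median was -0.098, and 0 of the 40 had an adjusted p below 0.01 (edgeR). Against vehicle, 2 genes passed the fold threshold, Nusap1 and Nuf2. Nusap1, a microtubule-binding protein of the spindle, stood at 146 and 148 with vehicle, 83.7 and 96.9 with DMSO and 61.9 and 63.3 with BI6727, a log2 fold change of -1.23. Nuf2, a kinetochore protein, had -1.01, and its call was lost without vehicle replicate 2 (-0.99), without BI6727 replicate 2 (-0.98) and with offsets for gene length (-0.96). Mki67, the proliferation marker, had a log2 fold change of -0.85, and Ccnb1, which encodes cyclin B1, -0.48. Aurka, which encodes Aurora kinase A, was the member above 0, at 0.24 (adjusted p = 0.0174, edgeR), and Cdk1 was at -0.04.

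The promoter of Mki67 is shown for the elements it shares with other mitosis genes. Capitals mark CCAAT boxes (CCAAT or ATTGG) and the cell cycle homology region (TTTGAA or TTCAAA).
Mki67, chr7:135716380-135716629 (- strand): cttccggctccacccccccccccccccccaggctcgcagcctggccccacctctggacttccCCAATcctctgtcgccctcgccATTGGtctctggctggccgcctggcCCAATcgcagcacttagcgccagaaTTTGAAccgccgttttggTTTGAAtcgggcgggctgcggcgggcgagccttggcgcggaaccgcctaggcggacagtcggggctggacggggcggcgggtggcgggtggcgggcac
It held 3 CCAAT boxes, at 188, 166 and 141 bases before the start, and 2 cell cycle homology regions, at 116 and 98. Of the 33 mitosis genes with a window, 24 (72.7%) held a CCAAT box and 11 (33.3%) a cell cycle homology region, against 40.5% and 13.2% of the tested genes and 33.8% and 16.0% of all promoter windows.

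Of 33 genes of DNA replication, 1 was called, and the median log2 fold change was -0.026. At an adjusted p below 0.01 with any fold change 12 passed, beside 25.3% of all genes (edgeR). At an unadjusted p below 0.05 in edgeR 7 were higher and 11 lower, beside 43% of all genes in either direction. The gene called was Tk1, which encodes thymidine kinase 1, from 121 and 126 to 57.7 and 56.3 normalized CPM, a log2 fold change of -1.11. Among the polo-like kinases, Plk3 was called higher, from 15.9 and 16.9 to 37.9 and 45.6, a log2 fold change of 1.35. Plk2 had a log2 fold change of 0.40 and Plk4, the kinase of centriole duplication, of -0.54, both under a fold of 2. Of 13 genes of D cyclins, CDK inhibitors and the RB family, Cdkn2c, the CDK4 and CDK6 inhibitor p18, was called lower at -1.12. Cdkn1a, the CDK inhibitor p21, stood at 329 and 369 with vehicle, 589 and 684 with DMSO and 615 and 661 with BI6727, a log2 fold change of 0.87 (adjusted p = 1.90e-09, edgeR), and Ccnd1, which encodes cyclin D1, had 0.96, or 1.20 without vehicle replicate 2 and 1.04 without BI6727 replicate 1, where it passed.

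Of 24 p53 target genes, 4 were called higher and 2 lower. The median was 0.40, beside 0.012 over all genes, and 17 had a log2 fold change above 0. The list median lay at 0.41 and 0.63 from vehicle in the DMSO libraries and at 0.40 and 0.47 in the BI6727 libraries. Between BI6727 and DMSO it was 0.0025, and 0 of the 24 had an adjusted p below 0.01 (edgeR). Mdm2, the ubiquitin ligase of p53, stood at 202 and 222 normalized CPM with vehicle, 491 and 530.3 with DMSO and 560.1 and 616 with BI6727. The BI6727 libraries were the highest, at a log2 fold change of 1.47 (adjusted p = 6.86e-13, edgeR) against vehicle and 0.20 (adjusted p = 0.786, edgeR) against DMSO. Pmaip1, the proapoptotic NOXA, rose by 1.77 on the log2 scale and the stress gene Gadd45a by 1.40, with 19.1% of the exonic length of Gadd45a overlapped by other genes. The death receptor Fas (-1.36) and the stress gene Sesn1 (-1.25) were called lower.

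**Figure D5:**
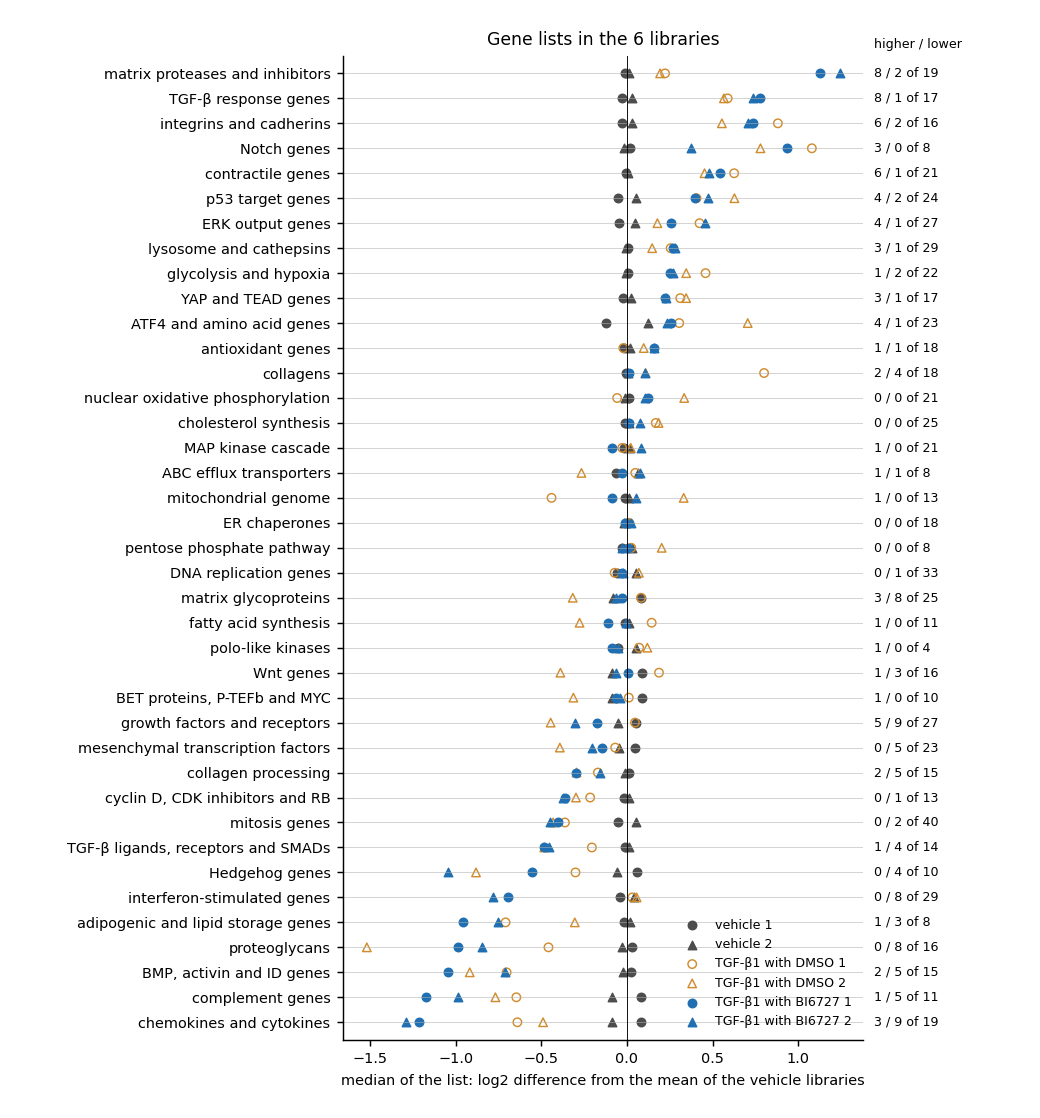
Median over the members of 39 gene lists of the log2 difference from the mean of the vehicle libraries, in each of the 6 libraries, with the number of members called higher and lower with BI6727 of those tested at the right. Lists at the top hold matrix proteases and TGF-β response genes, lists at the bottom hold chemokines and complement genes, and the interferon-stimulated genes are near 0 in the DMSO libraries and at -0.70 and -0.79 in the BI6727 libraries. Most of the 29 interferon-stimulated genes are at low levels, and 0 had an adjusted p below 0.01 between BI6727 and DMSO (edgeR).

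Many secreted mediators of inflammation were lower with TGF-β1 and BI6727, while 3 of the interleukin-6 family were higher. Of 19 chemokines and cytokines, 3 were called higher and 9 lower, with a median log2 fold change of -1.29. Ccl2, the monocyte chemokine, stood at 816 and 778 normalized CPM with vehicle, 314 and 391 with DMSO and 217 and 201 with BI6727, and Ccl7 at 319 and 290.5 with vehicle, 74.7 and 84.8 with DMSO and 52.6 and 41.2 with BI6727. In both genes the groups followed the order vehicle, DMSO, BI6727, with log2 fold changes of -1.93 and -2.71 between BI6727 and vehicle. Il33, an alarmin of stromal cells, fell by 4.72, from 27.5 and 14.8 to 0.659 and 0.899, and Cxcl1, a neutrophil chemokine, by 2.75. Il11, Lif and Clcf1, which signal through the shared receptor chain gp130, rose by 2.81, 1.99 and 1.40.

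Complement genes were called in 6 of 11 cases, 5 of them lower, with a median of -1.08. C3, the central component of the cascade, stood at 435 and 401 normalized CPM with vehicle, 58.4 and 35.2 with DMSO and 50.7 and 60.3 with BI6727. All treated libraries were under the vehicle libraries, and the log2 fold change came to -2.91 (standard error 0.082, adjusted p = 3.84e-16, edgeR). The proteases C1ra and C1s1 of the first component fell by 3.93 and 3.32 and C4b by 3.31, but these genes share 50.8%, 35.1% and 34.6% of their windows with other genes and are uncertain. Cfi, a protease that inactivates C3b, was the gene called higher, with 0 counts in both vehicle libraries and 1.59 and 1.31 normalized CPM with BI6727, at least 10.2-fold.

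Interferon-stimulated genes, which encode antiviral proteins and their regulators, were called lower in 8 of 29, with a median of -0.75. Ifit2, an antiviral RNA-binding protein, stood at 74.4 and 78.7 normalized CPM with vehicle, 34.7 and 31.7 with DMSO and 26.6 and 25.4 with BI6727, a log2 fold change of -1.56 (adjusted p = 1.91e-11, edgeR). Isg15 and Ifit1 had another order of groups. Isg15, a ubiquitin-like protein, was at 6.95 and 7.47 with vehicle, 27.5 and 44.9 with DMSO and 14.1 and 13.6 with BI6727, and Ifit1 at 14.3 and 20.7 with vehicle, 44.1 and 37.4 with DMSO and 12.1 and 14.3 with BI6727. For both, the DMSO libraries were the highest, and the log2 differences of BI6727 from DMSO were -1.39 (adjusted p = 0.125, edgeR) and -1.63 (adjusted p = 0.0526, edgeR), which did not pass. Most members are at low levels, and the count of 8 was 3 without vehicle replicate 1, 5 without vehicle replicate 2 or BI6727 replicate 1, 3 in the fit of all 6 libraries, 4 with DESeq2, and 1 of 9 genes with the filter of at least 10 CPM.

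ERK is the last kinase of a MAP kinase cascade, and its output genes include feedback phosphatases and growth factor ligands. Of 27 output genes, 4 were called higher and 1 lower, with a median of 0.39. Hbegf, a ligand of the EGF receptor, stood at 7.75 and 9.48 normalized CPM with vehicle, 68.1 and 76.5 with DMSO and 58.6 and 76.1 with BI6727, a log2 fold change of 2.96 (standard error 0.14). Dusp4 and Dusp5, phosphatases of ERK, rose by 2.38 and 2.14, and the transcription factor Egr2 by 1.95. Of the windows of Dusp5, 20.5% also occur in other genes. Fos was the gene called lower, at -2.35. In the cascade itself, 1 of 21 genes was called: Map2k1, which encodes the ERK kinase MEK1, stood at 120.2 and 121 with vehicle, 245 and 251 with DMSO and 248 and 254 with BI6727, a log2 fold change of 1.06 (adjusted p = 6.04e-11, edgeR) against vehicle and 0.02 against DMSO. Transcripts do not measure the phosphorylation of these kinases.

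Growth factors and their receptors moved in both directions, with 5 of 27 called higher and 9 lower. Among ligands, Vegfa, the main angiogenic factor, went from 94.0 and 101 to 574 and 595 normalized CPM, and its relative Vegfc from 1.56 and 1.07 to 10.1 and 11.2, log2 fold changes of 2.58 and 3.02. Vegfd went the other way, at -2.44. Fgf2 rose by 2.00, while Fgf10, which acts on epithelia, fell by 2.99, as did its relative Fgf7 by 1.66. Both receptors of PDGF fell, Pdgfra from 275 and 261 to 78.6 and 76.8 and Pdgfrb from 184 and 161 to 74.7 and 77.1, while the ligand Pdgfa rose by 1.93.

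Of the developmental pathways, Notch genes were called in 3 of 8, each higher. These were the ligand Jag1, the target Hes1 and the receptor Notch4, which stood at 3.17 and 2.77 normalized CPM with vehicle, 60.9 and 44.0 with DMSO and 21.9 and 23.1 with BI6727. The BI6727 libraries of Notch4 lay between the other groups, with log2 differences of 2.92 from vehicle and -1.22 from DMSO (adjusted p = 0.0697, edgeR). Hedgehog genes were called in 4 of 10, each lower, namely the coreceptors Gas1, Cdon (-1.63) and Boc (-1.46) and the transcription factor Gli2 (-1.54), and the call of Boc was lost without vehicle replicate 1, in the fit of all 6 libraries and with DESeq2. Of 16 Wnt genes, the ligand Wnt9a was called higher (2.23), and the secreted antagonists Sfrp2 and Dkk3 (-2.26) and the receptor Fzd1 (-1.14) lower. YAP and TEAD genes were called higher in 3 of 17, Ccn2, Ankrd1 (1.20) and Nuak2 (2.53). Cav1, the coat protein of caveolae, was lower, at 261 and 266 with vehicle, 104 and 107 with DMSO and 56.3 and 62.1 with BI6727, a log2 fold change of -2.15 against vehicle and -0.83 against DMSO (adjusted p = 0.0566, edgeR).

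Adhesion receptors were called higher in 6 of 16 genes and lower in 2, with a median of 0.72. Itga5, the fibronectin receptor subunit, stood at 179 and 195 normalized CPM with vehicle and 519.6 and 557 with BI6727, and Itgb3, a subunit of the vitronectin receptor, at 5.99 and 4.65 with vehicle and 35.1 and 38.7 with BI6727. The log2 fold changes were 1.52 and 2.80. N-cadherin, encoded by Cdh2, rose by 1.14. The integrin subunits Itga11 and Itga8 fell by 4.26 and 1.95. Of 23 mesenchymal transcription factors, 5 were called, each lower. Prrx1, a homeobox factor of limb and stromal mesenchyme, went from 719 and 660.4 to 241 and 250.2, its relative Prrx2 from 174 and 163 to 54.3 and 39.7, and Osr1 fell by 2.22 and Snai2 by 1.42.

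Of 8 lists of metabolic, ER and mitochondrial genes, 4 held no called gene. Of 25 cholesterol synthesis genes 0 were called, with a median of 0.052, although 9 were higher and 6 lower at an unadjusted p below 0.05 in edgeR, which 43% of all genes passed, and DESeq2 called 0. The pattern was alike for the 8 pentose phosphate genes (0 called by either tool, 3 higher and 2 lower at that p), the 18 ER chaperones (0 called by either tool, 5 higher and 7 lower) and the 21 nuclear genes of oxidative phosphorylation (0 called by either tool, 8 higher and 2 lower). At an adjusted p below 0.01 with any fold change (edgeR), 10 cholesterol, 5 pentose phosphate, 7 ER chaperone and 7 oxidative phosphorylation genes passed. The share over all genes, which include many with few counts, was 25.3%, so the lack of calls is not a lack of change. G6pdx, the first enzyme of the pentose phosphate pathway and a known substrate of PLK1, stood at 152 and 148 normalized CPM with vehicle, 109.9 and 94.2 with DMSO and 108 and 107 with BI6727. Its log2 fold change was -0.48 (adjusted p = 1.22e-05, edgeR), under a fold of 2, and 16.9% of its windows occur in other genes. Fasn, fatty acid synthase, was the gene called of 11 in fatty acid synthesis, at 262 and 271 with vehicle, 536 and 287 with DMSO and 583 and 586 with BI6727. Among 22 genes of glycolysis and hypoxia, Vegfa was higher, and Adm, which encodes adrenomedullin, and Pdk1, a kinase of pyruvate dehydrogenase, were lower, with log2 fold changes of -3.77 and -1.49. Of 8 adipogenic and lipid storage genes, 1 was called higher and 3 lower. Plin2, the coat protein of lipid droplets, rose from 220.5 and 248 to 529.8 and 550.3, and Lpl, lipoprotein lipase, fell from 55.3 and 32.7 to 4.01 and 6.66, log2 fold changes of 1.21 and -3.01. The transcription factor Cebpd fell by 1.81, and the call of Fabp4 was lost without either vehicle replicate, without BI6727 replicate 2, in the fit of all 6 libraries and with DESeq2. Of 13 genes of the mitochondrial genome mt-Nd3 was called higher, but 98.0% of its windows occur in other genes, and the call was lost in the fit of all 6 libraries.

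Lysosomal genes had a median of 0.28, beside 0.012 over all genes, and 22 of 29 were above 0, but 3 were called higher and 1 lower. Of the 12 housekeeping genes, 8 were above 0, with a median of 0.11. Besides Ctsw, the higher ones were Ctsf, the cathepsin F protease, from 0.101 and 0.268 to 15.7 and 13.6 normalized CPM, a log2 fold change of 6.23, and the sialidase Neu1, from 51.0 and 50.4 to 124 and 128. Of 23 genes of ATF4 and amino acid metabolism, 4 were called higher and 1 lower. Nupr1 rose by 1.74 and Atf3 by 1.57, and the calls of Trib3 and Chac1 were lost without vehicle replicate 1, and that of Chac1 also in the fit of all 6 libraries. The count of higher genes was 2 without that library. Of 18 antioxidant genes, Hmox1, heme oxygenase 1, was called higher, at 82.1 and 98.4 with vehicle, 137 and 156 with DMSO and 199 and 215 with BI6727, and Gstm1 was called lower (-2.13). The drug efflux pump Abcb1a, or P-glycoprotein, rose from 0.302 and 1.25 to 5.60 and 6.45, with 22.5% of its windows shared with other genes. The efflux pump Abcc3 had 1.16 and 1.97 with vehicle and 0 counts in both BI6727 libraries, at least 10.9-fold lower. Of 10 genes of BET proteins, P-TEFb and MYC, Mycl was called higher, a call lost without vehicle replicate 2, without BI6727 replicate 2, in the fit of all 6 libraries and with DESeq2.

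Among the markers of cell types, several of those of fibroblasts were lower. Of the 10 fibroblast markers, 5 were called lower, or 3 without BI6727 replicate 2, Pdgfra (-1.78), Prrx1 (-1.49), S100a4 (-1.22), Pdgfrb (-1.18) and Col1a2 (-1.03). Vim, which encodes vimentin, stood at 3892 and 4110.1 normalized CPM with vehicle and 4422 and 4422 with BI6727. For S100a4, 51.7% of the exonic length lies in other genes and the call was lost without BI6727 replicate 2 (-0.96) and in the fit of all 6 libraries. Of the epithelial markers, Cldn4 had 0 counts with vehicle and 0.659 and 0.368 normalized CPM with BI6727 and was called higher at the edge of the threshold, a call lost without vehicle replicate 1, without vehicle replicate 2, without BI6727 replicate 1, with the replicate block (adjusted p = 0.0153, edgeR), in the fit of all 6 libraries and with DESeq2. Of the 12 housekeeping genes 0 were called by edgeR or DESeq2. At an unadjusted p below 0.05 in edgeR, which 43% of all genes passed, 3 were higher and 1 lower. Of the 5 leukocyte and 5 endothelial markers 0 were called by either tool, with 1 leukocyte marker lower and 2 endothelial markers higher at that p. Ptprc, the leukocyte antigen CD45, had 0.302 and 0.179 normalized CPM with vehicle and 0 with BI6727. Whether a change in the kinds of cells had a part in the results was not tested.

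The effect of BI6727 relative to DMSO in cells with TGF-β1 was tested in a fit of all 6 libraries. By the same rule 2 of 17936 genes (0.0112%) were lower with BI6727 and 0 were higher, while 1178 genes (6.57%) had an unadjusted p below 0.05, and DESeq2 called 14 lower and 0 higher. The genes called were Ccl5 and Pde1b. Ccl5, a chemokine of T cells, stood at 2.87 and 4.03 normalized CPM with vehicle, 12.2 and 12.5 with DMSO and 1.76 and 1.06 with BI6727. With BI6727 it was under both other groups, with log2 differences of -1.32 from vehicle (adjusted p = 0.00482, edgeR) and -3.15 from DMSO (adjusted p = 0.00888, edgeR). The call against vehicle was lost without vehicle replicate 2, without BI6727 replicate 2, in the fit of all 6 libraries and with DESeq2. Pde1b, a calmodulin-dependent phosphodiesterase of cyclic nucleotides, stood at 9.82 and 11.4 with vehicle, 49.4 and 44.1 with DMSO and 15.7 and 15.1 with BI6727. Its BI6727 libraries lay near vehicle, with a log2 difference of 0.54 from vehicle, under a fold of 2, and -1.60 from DMSO (adjusted p = 0.00888, edgeR). Both calls were lost without BI6727 replicate 1 and without BI6727 replicate 2, where 0 genes were called. They were also lost with the replicate block, with only these 2 groups in the fit, with filterByExpr and with the filter of at least 10 CPM, each of which called 0 genes. Both were kept without either DMSO replicate, with 36 genes lower and 65 higher without DMSO replicate 1 and 37 lower and 4 higher without DMSO replicate 2. A gene that is not called between the treated groups is not shown to be alike in them.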

How the data were processed

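Total RNA was depleted of ribosomal RNA and sequenced as single-end 50-cycle reads on a BGISEQ-500. The authors aligned reads to mm10 with Subjunc of Subread 1.6.4, summed them per gene of Gencode M20 by featureCounts, and deposited the raw counts as 1 table (submitters' processing notes: DESeq2 1.22.2, R 3.6.1). The strand setting is not given in the sources used here, so overlapping and antisense genes cannot be told apart. Of 54752 identifiers, 54723 matched a symbol.

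The counts were used as deposited. Genes with at least 10 counts in total over the 6 libraries were kept. BI6727 was tested against vehicle with edgeR 4.0.16 (R 4.3.3; TMM, glmQLFit, glmQLFTest) in a fit of those 4 libraries, with 2 residual degrees of freedom, and against DMSO in a fit of all 6, with 3. P-values were adjusted by Benjamini-Hochberg over 17936 genes, and genes with an adjusted p below 0.01 and a fold change above 2 were called. Standard errors are the log2 fold change divided by the square root of F. With 2 libraries a group, SDs rest on 2 values. In counts simulated for the comparison with vehicle over 17936 genes, 100 of 100 genes changed 3-fold were recovered, with 0 false calls. The changed genes were drawn only from genes with many counts, and every gene was given the same spread. The simulation therefore does not speak for genes with few counts, for smaller changes or for genes that vary more.

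The genes and lists were chosen with earlier results of these data known. The named genes were those of the pathways studied, the 12 largest rises and falls with non-overlapping groups and at least 1 normalized CPM in the lower group, the 5 highest genes in each direction with at most 3 counts in every library of the lower group, and, per list, up to 4 called members in each direction or, where none was called, the 2 highest. Aurka, Bhlhe40, Ccl2, Ccl5, Ccnd1, Cdh2, Cdk1, Dcn, Fgf7, Fosl1, Id1, Ifit1, Ifit2, Isg15, Itga5, Jun, Junb, Lox, Myh9, Pde1b, Plk2, Plk4, Ptprc, Smtn, Tgif1, Timp1 and Vim, and the genes and lists of the closing observations, were named after their values were seen. Some genes that count in the lists are not reported here, and these rules passed over them. Uncertainty of a gene was described by the share of its 50-base windows found in other genes and the share of its exonic length that other genes overlap. Promoters came from RefSeq (GRCm38.p6) and were searched on both strands. Alternatives were DESeq2 1.42.0, its size factors in edgeR, 3 filters, another set of libraries in the fit, a replicate block, offsets for gene length, other thresholds, and each library left out.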

Additional observations from a re-analysis of the deposited data

How the results depend on the processing

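Both Acta2 and Plk1 kept their direction and their side of the threshold under all 12 alternatives, at 1.76 to 1.90 and -0.76 to -0.65 with a library left out and at 1.78 to 1.83 and -0.74 to -0.70 under the other settings. With a library left out, the lone library of a group is assumed to vary like the others. Against vehicle, 479 genes were higher and 727 lower. With a minimum of 10 CPM in over 3 samples, which tests fewer genes, the counts were 237 and 300, and with no fold minimum 2187 and 2356. With a library left out they were 416 to 492 and 628 to 780, and with DESeq2 399 and 623. The labels do not say whether same-numbered vehicle and BI6727 libraries were handled together. Their deviations correlated at 0.043 over genes, which cannot decide this with 2 libraries a group. With the replicate number as a block, Acta2 was 1.82 and Plk1 -0.71, and 491 genes were higher and 751 lower, with 471 and 718 of them shared with the fit without the block.

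Between BI6727 and DMSO, the count of 0 higher genes was 6 with all genes of at least 1 count, and 0 to 65 with a library left out. The count of 2 lower genes was 14 with DESeq2, 41 with at least 1 count and 13 with offsets for gene length. It was 0 with at least 10 CPM, with filterByExpr, with only the 2 groups in the fit and with the replicate block, and 0 to 37 with a library left out. The same-numbered deviations of these groups correlated at -0.26. An alternative chosen after seeing the data, with crossed numbers as a block and only these groups, called 2 higher and 26 lower. The cause of these differences was not tested.

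Of 2658 values of single genes under an alternative, 74 lost a call, in 24 genes, and 7 gained one. The sign turned in 2 genes, neither called: with a library left out, Col1a1 ran from -0.070 (without vehicle replicate 2) to 0.13, and Cyp51 from -0.0028 (without BI6727 replicate 2) to 0.090. List medians changed sign in 20 of 561 cases, in 11 lists. With the minimum of 10 CPM, the genes called lower were 2 of 10 proteoglycans, 2 of 10 TGF-β ligands, receptors and SMADs, 3 of 8 BMP and activin genes, 2 of 4 complement genes, 1 of 4 Hedgehog genes, 1 of 5 adipogenic genes and 0 of 10 integrins and cadherins. Under this filter 300 genes in all were called lower. Their share of the genes tested there is not given, and the 4.05% of all 17936 genes is not that share. The 2 libraries per group limit the precision.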

Other observations

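The lists in these paragraphs were chosen after the values of the genes were seen, so their counts are descriptions. Acute-phase genes, whose products are released in inflammation, were called lower with TGF-β1 and BI6727 in 11 of 14 tested, with a median log2 fold change of -2.87. Saa3, a serum amyloid A protein, stood at 199.6 and 98.1 normalized CPM with vehicle, 1.38 and 1.09 with DMSO and 0.549 and 0.163 with BI6727, and Hp, haptoglobin, at 48.2 and 23.2 with vehicle, 2.62 and 0.708 with DMSO and 0.330 and 0.123 with BI6727. In both genes vehicle replicate 1 lay well above vehicle replicate 2, and every treated library lay far below both. Their log2 fold changes, -8.80 and -7.36, were larger in size than that of Ly6a, but their BI6727 levels were under 1 normalized CPM. The protease inhibitor Slpi went from 368 and 318 with vehicle to 37.6 and 55.9 with BI6727, and Cp, the copper carrier ceruloplasmin, from 280.4 and 245 to 41.8 and 44.2. With a minimum of 10 CPM in over 3 samples, 5 of the 5 genes left were called lower.

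Receptors of cytokines and Toll-like receptors were called lower in 10 of 22 tested, with a median of -0.98. Il6st, the receptor chain gp130, stood at 377 and 352 normalized CPM with vehicle, 121 and 73.0 with DMSO and 96.5 and 104 with BI6727, a log2 fold change of -1.86. Its partner chains Osmr, Lifr and Il11ra1 fell by 2.99, 1.83 and 1.81, while the ligands Il11, Lif and Clcf1 were called higher, as given above. Il1r1, the receptor of interleukin 1, went from 111 and 99.7 to 24.9 and 23.0, and Tlr2 fell by 2.15.

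Among 19 circadian clock genes, 1 was called higher and 5 lower. The clock output factors Dbp and Hlf and the repressor Per2 stood below 11 normalized CPM with vehicle and fell by 2.59, 2.85 and 2.46 on the log2 scale. The core activator Arntl stood at 14.7 and 14.9 with vehicle and 21.2 and 21.6 with BI6727, under a fold of 2, and the repressor Nr1d1 at 28.2 and 27.2 with vehicle and 28.3 and 34.5 with BI6727. With the minimum of 10 CPM, 1 of 9 clock genes was called higher and 1 lower. The list median was -0.70 without that minimum and 0.10 with it.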
